A study of Mus musculus with 23 samples.

Results

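Nras, Hras, Braf, Myc, Mycn, Cdkn2a, Cdkn2b and Rb1 are drivers of growth and of its arrest in many tumours, and their RNA levels were compared over 8 subclones of Lewis lung carcinoma (LLC), a mouse lung tumour cell line. The 8 genes were taken by name, and each was read from its brightest probe set over all arrays. For 7 of the 8, such a probe set was named in the array annotation, out of 18193 genes in all. Hras had no probe set under its name there and was not analysed here. The 23 arrays were from subclones 2, 3, 18, 19, 23, 24 and 28 with 3 arrays each and subclone 6 with 2. Every subclone goes back to LLC parental cells by limiting dilution, so each stands for 1 clone. All groups shared the same culture: DMEM with 10% fetal bovine serum and antibiotics, then FreeStyle medium without serum for 24 h, then lysis. Arrays of parental cells, or of cells left in serum, were not analysed here. Arrays of 1 subclone are named biological replicates, but what was repeated is not said, so p-values measure the spread between these arrays, which may be technical.

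RAS proteins are small GTPases at the inner face of the cell membrane that switch on RAF kinases, and RAF kinases such as BRAF start the cascade through MEK to ERK. MYC and MYCN are transcription factors that pair with MAX and raise genes of ribosome making and metabolism. The Cdkn2a locus encodes p16INK4a, which blocks the kinases CDK4 and CDK6, and from another first exon p19ARF, which restrains MDM2. Its neighbour Cdkn2b encodes p15INK4b, a second blocker of the same kinases. RB1 holds E2F factors in check until those kinases phosphorylate it. Mutations, copy number and protein activity, by which these genes often act in tumours, were not measured by these arrays.

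Levels are log2(intensity + 16), so folds on this scale understate changes of dim genes, and the level of one gene is not set against that of another. Array medians lay between 40.83 and 45.74 intensity units, and no pair of arrays held identical values. As a floor, the 95th percentile of 74 genes for olfactory, vomeronasal and taste receptors was used, a level of 5.64. Of 6 epithelial markers, Krt7 and Cdh1 lay under it on all arrays. Krt18 (10.82 or more), Epcam (7.05 or more) and Krt8 (5.70 or more) had means above it in every subclone, and means of Krt19 ran from 5.06 to 7.16. Under it on all arrays were also 3 of 5 markers of lung epithelium, 4 of 5 of leukocytes, 4 of 4 of endothelium and 1 of 5 of fibroblasts.

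Nras, Braf, Myc and Rb1 differed between subclones, and Cdkn2a and Cdkn2b lay at the floor in all 8. The moderated F-test of limma, which asks whether the 8 means are equal, called 4 of the 7 measured genes at an adjusted p under 0.05. The same test called 61.8% of all genes, and 88.4% of the genes with a mean above the floor, so this count is no larger than elsewhere on the array. Between the highest and lowest subclone, Myc ranged 1.87-fold, Braf 1.63-fold, Nras 1.52-fold and Rb1 1.25-fold. The median range of genes with a mean above the floor was 0.60 log2 units, against 0.90 for Myc, 0.71 for Braf, 0.60 for Nras and 0.32 for Rb1. Of the 7 genes, 5 had a mean above the floor, and the fifth of these, Mycn, lay close to it. Mycn, Cdkn2a and Cdkn2b did not pass.

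**Figure D1:**
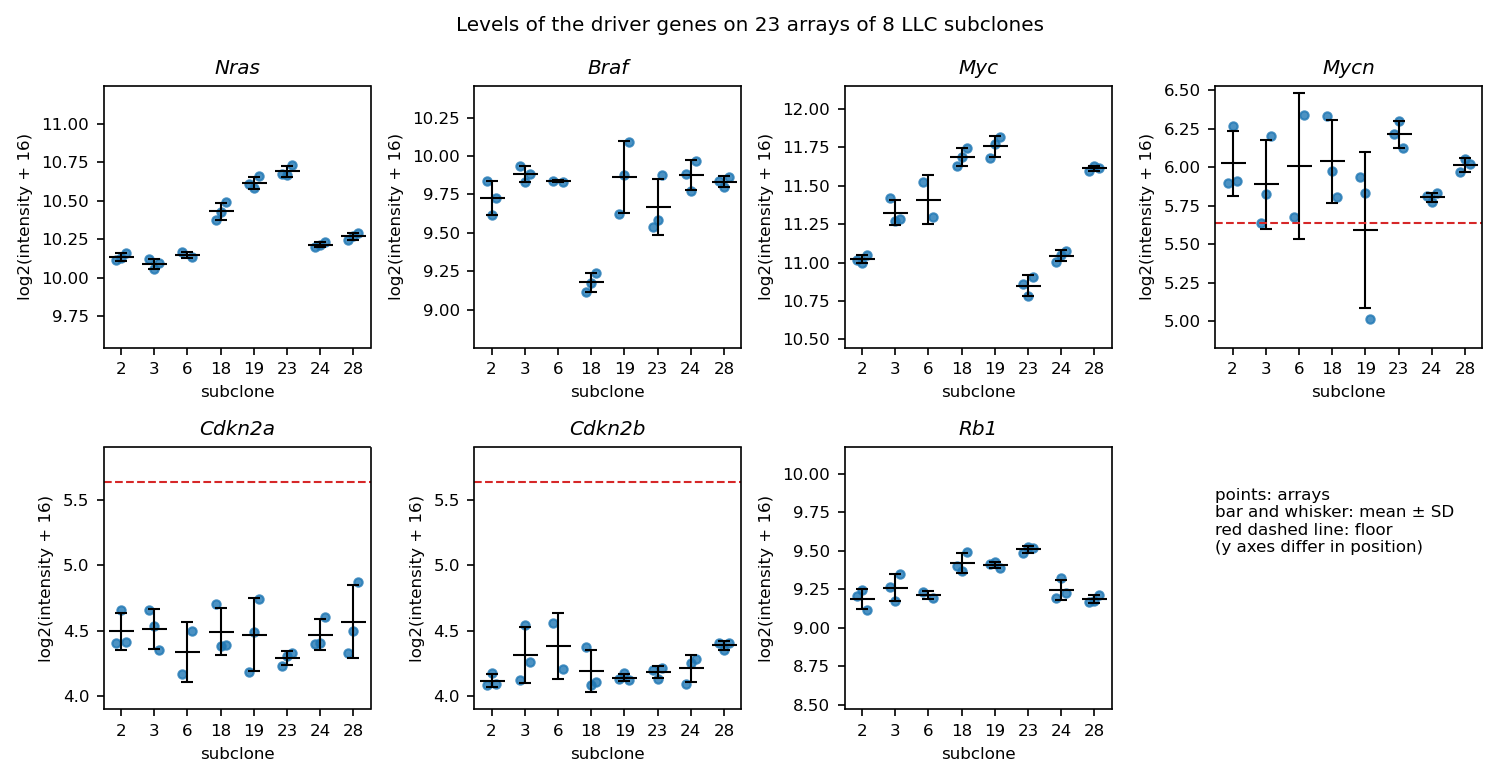
Levels of the 7 measured genes, log2(intensity + 16), on each array of 8 subclones (points), with the mean and SD of each subclone (bars) and the floor of 5.64 (dashed line). Cdkn2a and Cdkn2b stay under the floor on all 23 arrays, Braf is low in subclone 18 alone, and Nras is highest in subclones 23 and 19.

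Nras, which encodes a RAS GTPase, was highest in subclones 23 and 19. The arrays of subclone 23 read 10.67, 10.67 and 10.73, those of subclone 19 read 10.61, 10.58 and 10.66, and those of subclone 18 read 10.38, 10.43 and 10.49. Subclone 28 read 10.25, 10.27 and 10.29 and subclone 24 read 10.20, 10.21 and 10.23. The lowest were subclone 6 (10.16 and 10.14), subclone 2 (10.12, 10.13 and 10.16) and subclone 3 (10.12, 10.06 and 10.09). No array of subclones 18, 19 or 23, grouped here by these same values, overlapped any array of the other 5. The F-test gave an adjusted p of 1.19e-10. Against the mean of the other 7, Nras was higher in subclone 23 by 0.42 ± 0.028 log2 units (SE, adjusted p = 9.31e-10) and in subclone 19 by 0.33 ± 0.028 (adjusted p = 1.61e-08). It was lower in subclone 3 by -0.27 ± 0.028 (adjusted p = 3.54e-07). Of the 8 such contrasts, 7 were called for Nras, 3 higher and 4 lower. These contrasts called 35.9, 38, 23.9, 43, 41.9, 37.6, 32.2 and 37.4% of all genes in subclones 2, 3, 6, 18, 19, 23, 24 and 28. In the same order, 15.4, 19.4, 13.8, 21.5, 24.2, 20.2, 15.2 and 19.2% of all genes were called higher and 20.5, 18.6, 10.1, 21.6, 17.7, 17.4, 17.1 and 18.2% lower. Among genes with a mean above the floor, 22.6, 28.6, 19.4, 31, 35.8, 30.8, 23.1 and 28.1% were higher and 30.4, 27.7, 15.3, 31.8, 24.8, 24.8, 24.6 and 27.3% lower, and counts of neighbours and of gene lists are read against these. Of the 28 pairs of subclones, 21 were called, against 35.8% of all genes and pairs. That share includes genes under the floor, and none was computed for genes with a mean above it. Pair counts of the other members are read with the same limit. At the top, subclone 19 minus subclone 23 was -0.07 (adjusted p = 0.136, 95% interval from -0.15 to 0.00296), although their arrays did not overlap. From subclone 28 down to subclone 3, no neighbours in the order differed past the threshold. Pairs farther apart did: subclone 28 was called above subclones 6, 2 and 3 (adjusted p = 0.036, 0.00754 and 0.000732). Subclone 24 was called above subclone 3 (adjusted p = 0.0119).

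The 3 probe sets of Nras did not give the same order. The second brightest followed the first, with a Pearson r of 0.98 over the 8 subclone means, from 9.76 in subclone 6 to 10.51 in subclone 23. The third was highest in subclone 3 (9.36) and lowest in subclone 24 (8.77), with an r of -0.33. All 3 passed the F-test over all probe sets, which called 58.3% of the 34945. Its adjusted p was 2.11e-10 for the second and 9.55e-09 for the third. With the mean of the 3 probe sets, the Nras difference in subclone 18 was 0.01 (adjusted p = 0.894) in place of 0.12 (adjusted p = 0.00135), and that in subclone 3 was -0.06 (adjusted p = 0.0722).

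**Figure D2:**
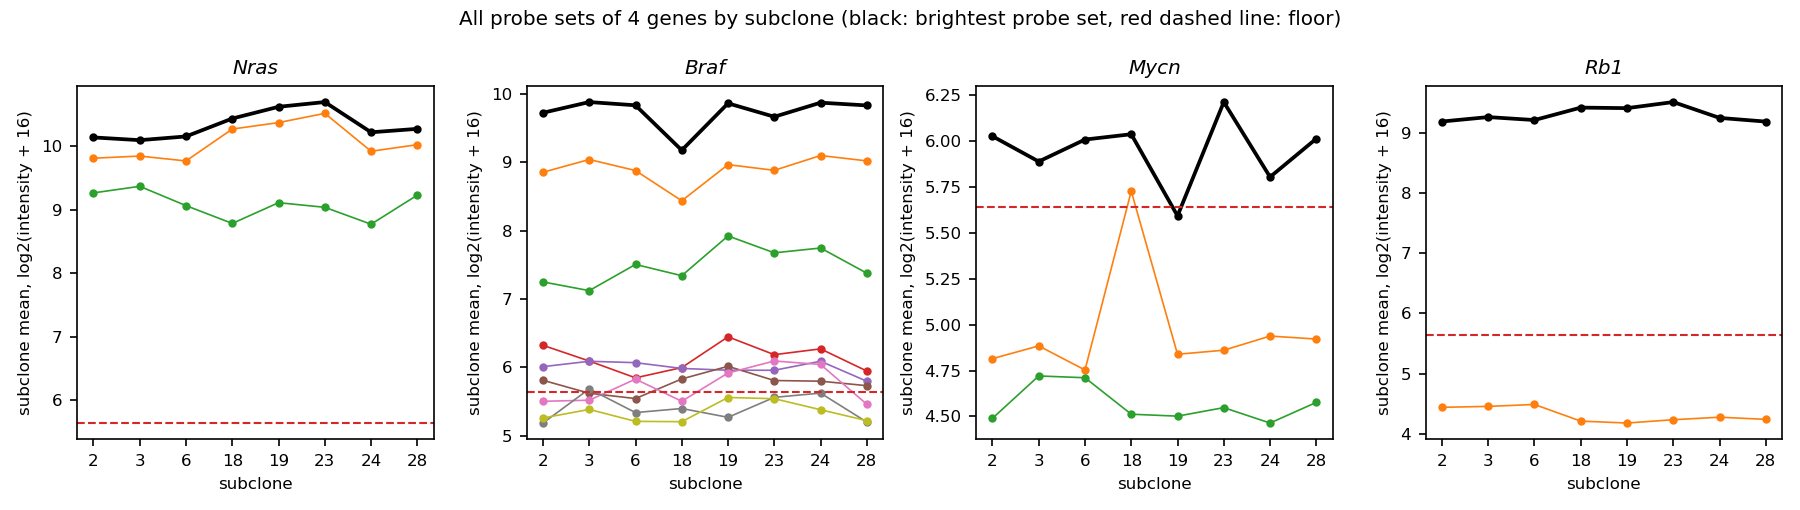
Subclone means, log2(intensity + 16), of every probe set of Nras, Braf, Mycn and Rb1 (lines), with the brightest in black and the floor of 5.64 dashed. The third Nras probe set departs from the other 2, both of the brightest Braf probe sets dip in subclone 18, and a dim Mycn probe set rises to 5.73 in subclone 18.

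Genes beside Nras on chromosome 3 differed in the same direction as Nras in subclones 2, 3, 6, 19, 23 and 24, by their median, and in the opposite direction in subclones 18 and 28. Of the 20 nearest measured genes with a mean above the floor, 10 on each side, 17 were higher in subclone 19 and 0 lower, with a median of 0.28. The same contrast called 24.2% of all genes higher, and 35.8% of those with a mean above the floor. In subclone 23, 14 of the 20 were higher and 0 lower (median 0.21, and 0.09 with 25 genes a side), where 20.2% of all genes were higher and 30.8% of those above the floor. In subclones 2, 3 and 6, 11, 12 and 11 of the 20 were lower, with medians of -0.14, -0.16 and -0.19, where 30.4, 27.7 and 15.3% of genes above the floor were lower. With 25 genes a side, these medians were -0.11, -0.08 and -0.13, and that of subclone 19 was 0.31. In subclone 24, 7 were lower and 1 higher (median -0.11). The whole of chromosome 3 had a median of 0.24 in subclone 19 and 0.08 in subclone 23. In subclones 2, 3, 6 and 24 it was -0.11, -0.05, -0.07 and -0.09. It had the sign of the neighbours' median in all 8 subclones, so the shift was not confined to the genes beside Nras. In subclone 18, the median of the neighbours was -0.06, while Nras stood at 0.12. In subclone 28, 8 neighbours were higher and 3 lower (median 0.10), while Nras stood at -0.06 and was not called. The part of these neighbours in the level of Nras was not tested.

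**Figure D3:**
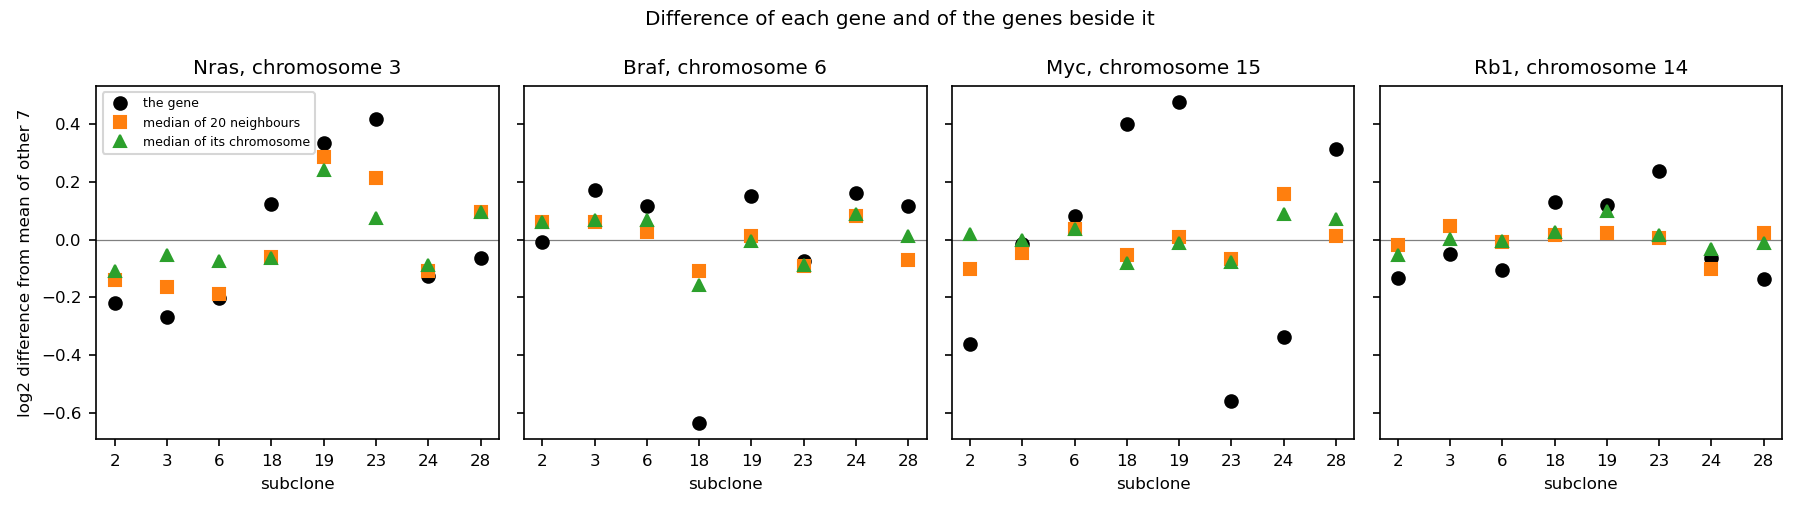
Log2 difference of each subclone from the mean of the other 7 for Nras, Braf, Myc and Rb1 (circles), for the median of 20 genes beside each (squares) and of its chromosome (triangles), the latter over genes with a mean above the floor. Squares lie near the circles for Nras in subclone 19 (0.28 and 0.33), and far from them for Braf in subclone 18 (-0.11 and -0.63).

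Of 30 regulators and relatives of RAS, 30 passed the F-test, which called 88.4% of genes with a mean above the floor. Their widest ranges were those of Rala, a RAS-like GTPase (10.23 in subclone 18, 11.58 in subclone 3), and of the GTPase-activating protein gene Dab2ip (8.59 in subclone 19, 9.92 in subclone 28). Subclones 18 and 3 were also the ends for the exchange factor gene Rasgrp3, with 4.68, under the floor, and 6.01, and for Rasal2, with 8.54 and 9.64. In subclone 23, where Nras was highest, 17 of the 30 were higher and 4 lower, with a median of 0.17 against -0.01 over all genes. The list mixes genes that switch RAS on, such as exchange factors, with genes that switch it off, such as GTPase-activating proteins. Its counts therefore give no direction of RAS activity. In subclone 18, 10 were higher and 15 lower, with Rasa1, which stimulates GTP hydrolysis by RAS, at -0.69 ± 0.031 (adjusted p = 2.2e-12).

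Braf was low in subclone 18 alone. Its arrays read 9.12, 9.18 and 9.24 there, and between 9.54 (subclone 23) and 10.09 (subclone 19) on the 20 arrays of the other 7 subclones. The arrays of subclone 18, picked out here by these same values, overlapped no other array. Braf was 1.55-fold lower in subclone 18 than in the mean of the others (-0.63 ± 0.075 SE, adjusted p = 1.06e-06). That contrast called 21.6% of all genes lower, and 31.8% of those with a mean above the floor. The F-test gave an adjusted p of 5.32e-05, and the 7 pairs called out of 28 were those with subclone 18. Over all genes, 35.8% of pairs were called. Among the other 7, no pair differed past the threshold, and arrays of one subclone spread widely, from 9.62 to 10.09 in subclone 19 and from 9.54 to 9.88 in subclone 23. Calls for other subclones turned on single arrays. Without replicate 1 of subclone 19, that subclone was higher by 0.27 (adjusted p = 0.00806). Without its replicate 3, subclones 3 and 24 were higher by 0.19 and 0.18 (adjusted p = 0.0297 and 0.0458), and without replicate 3 of subclone 23, subclone 3 was higher by 0.19 (adjusted p = 0.0361).

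Braf had 9 probe sets. The second brightest was likewise lowest in subclone 18 (8.44, against 8.86 to 9.10 elsewhere), with an r of 0.96 over the 8 means. The third, with a mean level of 7.49, had its lowest mean in subclone 3 (7.12) and stood at 7.34 in subclone 18, with an r of 0.22. The other 6 had mean levels between 5.35 and 6.15, around the floor. The 20 genes beside Braf on chromosome 6 had a median of -0.11 in subclone 18, with 4 higher and 9 lower, and the chromosome one of -0.16. The fall of Braf there was -0.63.

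Of 13 listed genes of the cascade from RAF through MEK to ERK, 8 were measured. All 8 passed the F-test, as did 88.4% of genes above the floor. Map2k2, which encodes MEK2, and the RAF kinase gene Araf both peaked in subclone 23, at 9.99 and 9.89, and were lowest in subclone 3 (9.01) and subclone 18 (9.30). Map2k1 (MEK1) was lowest in subclone 18 (11.24) and highest in subclone 6 (11.74), and the scaffold gene Ksr1 went from 6.99 in subclone 2 to 7.63 in subclone 19. In subclone 18, 5 of the 8 were lower and 2 higher. In subclones 19 and 23, 4 of the 8 were higher and 0 lower in each.

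Genes induced by ERK were not highest where Nras was. In subclone 28, where the difference of Nras was -0.06 ± 0.028 and was not called (adjusted p = 0.0889), 14 of 14 measured ERK output genes were higher, with a median of 0.58. That contrast called 19.2% of all genes higher, and 28.1% of those with a mean above the floor. In subclone 18, where Braf was low, 12 were lower and 1 higher, with a median of -0.58, and 31.8% of genes above the floor were lower. Dusp5, a nuclear ERK phosphatase, went from 6.58 in subclone 18 to 9.01 in subclone 28, the EGF receptor ligand gene Ereg from 9.02 to 11.16, and Ier3 from 11.05 to 12.82. Egr1, an immediate early factor, was lowest in subclone 24 (7.09) and highest in subclone 28 (8.63). In subclones 19 and 24, 10 of the 14 were lower in each, with 2 and 0 higher. In subclone 23, with the highest Nras, 4 were higher and 5 lower.

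Myc had the widest range among the members. The arrays read 11.68, 11.77 and 11.82 in subclone 19, 11.63, 11.69 and 11.75 in subclone 18, and 11.60, 11.63 and 11.61 in subclone 28. Subclones 6 (11.52 and 11.30) and 3 (11.42, 11.27 and 11.28) lay between. Subclone 24 read 11.01, 11.05 and 11.08, subclone 2 read 11.02, 11.00 and 11.05, and subclone 23 read 10.86, 10.78 and 10.91. No array of the first 3 overlapped any of subclones 3 and 6, and none of these overlapped any of the last 3. These groups were drawn from the values themselves. The F-test gave an adjusted p of 2.11e-10.

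Against the mean of the others, Myc was higher in subclones 19 (0.48 ± 0.044 SE, adjusted p = 5.03e-08), 18 (0.40 ± 0.044) and 28 (0.31 ± 0.044). It was lower in subclones 23 (-0.56 ± 0.044, adjusted p = 7.41e-09), 2 (-0.36 ± 0.044) and 24 (-0.34 ± 0.044). The 6 called contrasts all had adjusted p of 1.01e-05 or less. Subclones 19 and 23 differed by 0.90 (95% interval from 0.78 to 1.03). Of the 28 pairs, 23 were called, against 35.8% of pairs over all genes, those under the floor included. In the order of levels, subclones 19 and 18 differed by 0.07 (adjusted p = 0.408), 18 and 28 by 0.07 (adjusted p = 0.352), 6 and 3 by 0.08 (adjusted p = 0.428) and 24 and 2 by 0.02 (adjusted p = 0.815), while each other step was called. Without replicate 2 of subclone 6, that subclone was also higher, by 0.19 (adjusted p = 0.0498, against 0.306 with it). Myc has a single probe set in the annotation, so no other probe set was set beside it.

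The 20 genes beside Myc on chromosome 15 had a median of 0.01 in subclones 19 and 28, -0.05 in subclone 18 and -0.07 in subclone 23. It was -0.10 in subclone 2, in the direction of Myc, and 0.16 in subclone 24, opposite to Myc.

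Of 33 measured Myc target genes, mostly of nucleolus, ribosome making and nucleotide synthesis, 31 passed the F-test, which called 88.4% of all genes above the floor. In subclones 18 and 19, where Myc was high, 25 and 22 of them were higher and 2 lower in each, with medians of 0.33 and 0.20. These contrasts called 21.5% and 24.2% of all genes higher, and 31% and 35.8% of those with a mean above the floor. Ddx21, a nucleolar RNA helicase gene, was higher by 0.81 ± 0.052 in subclone 18 and by 0.53 ± 0.052 in subclone 19. The transferrin receptor gene Tfrc (0.80 ± 0.038) and Shmt2 of serine metabolism (0.68 ± 0.032) were among the largest differences in subclone 18, and the spermidine synthase gene Srm (0.53 ± 0.031) in subclone 19. In subclone 23, with the lowest Myc, 17 were lower and 4 higher (median -0.10). Cad, an enzyme of pyrimidine synthesis, was lower there by -0.83 ± 0.035 (adjusted p = 2.11e-12). In subclone 2, also with low Myc, 14 were lower and 2 higher (median -0.08), where 30.4% of genes above the floor were lower.

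In subclones 28 and 24, the targets did not lie on the side of Myc. In subclone 28, with high Myc, 16 of the 33 targets were lower and 3 higher (median -0.11), among them Nop56 at -0.50 ± 0.037 and Nip7 at -0.45 ± 0.030, whereas Cad was higher (0.34 ± 0.035). In subclone 24, with low Myc, 12 were higher and 4 lower (median 0.05), and Cad had its highest mean there (10.29). In subclone 6, where Myc was not called (0.08, adjusted p = 0.306), 17 of the 33 were lower and 2 higher, with the lowest median of the 8 subclones (-0.14).

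Of 21 listed genes of the MYC network, 19 passed the F-test, a share near the 88.4% of genes above the floor. Cip2a, whose protein protects MYC from dephosphorylation, ranged from 8.43 in subclone 2 to 9.80 in subclone 18. Mxi1, a MAX partner that opposes MYC, was lowest in subclone 18 (10.75) and highest in subclone 28 (11.80). Mxd4, of the same group, went from 9.12 in subclone 28 to 10.05 in subclone 23, and the kinase gene Pim1 from 8.09 in subclone 18 to 9.12 in subclone 6. Medians of this list lay between -0.11 (subclone 2) and 0.08 (subclone 18).

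Mycn lay close to the floor. Its 23 arrays read from 5.01 to 6.34, with 2 of them under 5.64 and subclone means from 5.59 in subclone 19 to 6.21 in subclone 23. Every subclone had at least 1 array above the floor, and arrays of all neighbours in the order overlapped. The F-test gave an adjusted p of 0.292 with a residual SD of 0.278, and 1 of 28 pairs was called, subclones 19 and 23 (-0.62, adjusted p = 0.0288). Replicate 3 of subclone 19, at 5.01, was the lowest array, and without it the difference of subclone 19 from the others was -0.12 (adjusted p = 0.614) in place of -0.41 (adjusted p = 0.052). Leaving out replicate 1 of subclone 3, 6 or 19, replicate 2 of subclone 19 or replicate 3 of subclone 18 gave adjusted p between 0.0189 and 0.0447, with differences from -0.42 to -0.58.

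A dimmer probe set of Mycn set subclone 18 apart. It read 5.91, 5.62 and 5.66 there, and between 4.58 and 5.15 on the other 20 arrays. No array overlapped, though subclone 18 was singled out after these values were seen. The F-test over all probe sets, which called 58.3% of the 34945, gave it an adjusted p of 6.2e-05. Its r with the brightest Mycn probe set over the 8 subclone means was 0.16. Replicate 2 of subclone 18 still lay under the floor, as did the 20 arrays of the other subclones. The third probe set lay under the floor on all arrays.

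Cdkn2a and Cdkn2b lay at the floor in all 8 subclones, on 23 of 23 arrays each. Cdkn2a read from 4.17 to 4.87 and Cdkn2b from 4.09 to 4.56, against the floor of 5.64. Of all genes, 29.7% had all arrays under it. At this level no order of subclones can be read, and the F-test gave adjusted p of 0.7 and 0.152. For Cdkn2b, 1 of 28 pairs was called (subclones 2 and 28, adjusted p = 0.0449), with both groups under the floor, so no fold is given. Without replicate 2 of subclone 6, Cdkn2b passed the F-test (adjusted p = 0.0366), and without replicate 2 of subclone 3 or replicate 1 of subclone 6, it passed in subclone 28 (0.19 in both, adjusted p = 0.0309 and 0.0338). Each gene had 1 probe set, and no array showed either above the floor, so whether these probe sets respond was not tested. The sources used here do not say whether that of Cdkn2a reads p16INK4a, p19ARF or both.

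The windows around the 3 start sites of this pair are given because the genes lie at the floor throughout. They come from RefSeq on build GRCm38.p6, each with 250 bases before and 50 after the start, on the minus strand of chromosome 4. CG pairs, where DNA can be methylated, are in capitals. The genes' coordinates give the upstream Cdkn2a start, that of p19ARF, as chr4:89294570-89294869, the downstream one, that of p16INK4a, as chr4:89282143-89282442, and that of Cdkn2b as chr4:89310983-89311282.
Cdkn2a, p19ARF start: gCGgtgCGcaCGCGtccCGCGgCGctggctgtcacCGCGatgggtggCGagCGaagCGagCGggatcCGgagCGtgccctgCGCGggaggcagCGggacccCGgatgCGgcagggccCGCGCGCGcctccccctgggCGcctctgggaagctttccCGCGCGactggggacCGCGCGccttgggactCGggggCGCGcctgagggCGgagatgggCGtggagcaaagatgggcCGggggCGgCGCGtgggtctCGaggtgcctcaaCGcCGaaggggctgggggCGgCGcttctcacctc
Cdkn2a, p16INK4a start: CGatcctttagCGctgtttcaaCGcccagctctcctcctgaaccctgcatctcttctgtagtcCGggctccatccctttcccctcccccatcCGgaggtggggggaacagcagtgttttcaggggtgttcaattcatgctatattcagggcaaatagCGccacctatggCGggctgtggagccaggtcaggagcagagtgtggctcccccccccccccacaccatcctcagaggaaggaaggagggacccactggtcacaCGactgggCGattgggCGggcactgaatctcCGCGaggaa
Cdkn2b: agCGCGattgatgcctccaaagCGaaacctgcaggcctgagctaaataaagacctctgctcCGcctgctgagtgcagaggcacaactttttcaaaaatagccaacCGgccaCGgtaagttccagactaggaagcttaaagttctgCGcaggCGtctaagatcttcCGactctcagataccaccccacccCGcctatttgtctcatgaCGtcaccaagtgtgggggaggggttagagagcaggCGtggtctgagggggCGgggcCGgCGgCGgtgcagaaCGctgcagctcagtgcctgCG

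The p19ARF window held 45 CG pairs, more than 98.07% of 32851 promoter windows of the same length, and was 77% G and C. The p16INK4a window held 12 and the Cdkn2b window 18, against a median of 7. Neither methylation of these sites nor copy number of the locus was measured, and the cause of the floor levels was not tested. A search on both strands for the E2F motifs TTTGGCGC, TTTCCCGC, TTTGCCGC and TTTCGCGC found 1 match in the p19ARF window, 0 in the other 2 and 3 in that of Mycn. Such a match occurred in 2.27% of all windows. The MYC motif CACGTG was found once in the window of Nras and in none of Braf, Mycn, Cdkn2a and Cdkn2b, and in 7.15% of all windows. Windows were found for 6 of the 8 genes, and a match is a string of letters and no binding site.

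Beside the pair, some genes lay above the floor and others under it. Mtap, an enzyme of methionine salvage whose gene is the nearest measured one to Cdkn2a there, read from 11.31 to 11.65 over all arrays. Klhl9, beyond a run of interferon genes, had subclone means of 11.25 (subclone 18) to 11.61 (subclone 28). Within that run, Ifnz had means of 7.17 (subclone 18) to 8.08 (subclone 6), and was named after its values were seen. On the other side, Dmrta1, next to Cdkn2b, and Elavl2 lay under the floor on all arrays, as did Ifnb1 beyond Klhl9. Zfp352, between Dmrta1 and Elavl2, had means of 6.91 (subclone 6) to 7.22 (subclone 18), and was named after its values were seen. Farther out, Focad and Hacd4 had opposite ends: Focad was at 9.57 in subclone 3 and 9.06 in subclone 23, and Hacd4 at 5.76 and 7.32. Mllt3 was lowest in subclone 19 (9.44) and highest in subclone 6 (10.19). The 20 nearest genes with a mean above the floor had medians between -0.12 (subclone 18, 11 lower) and 0.12 (subclone 3, 10 higher).

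**Figure D4:**
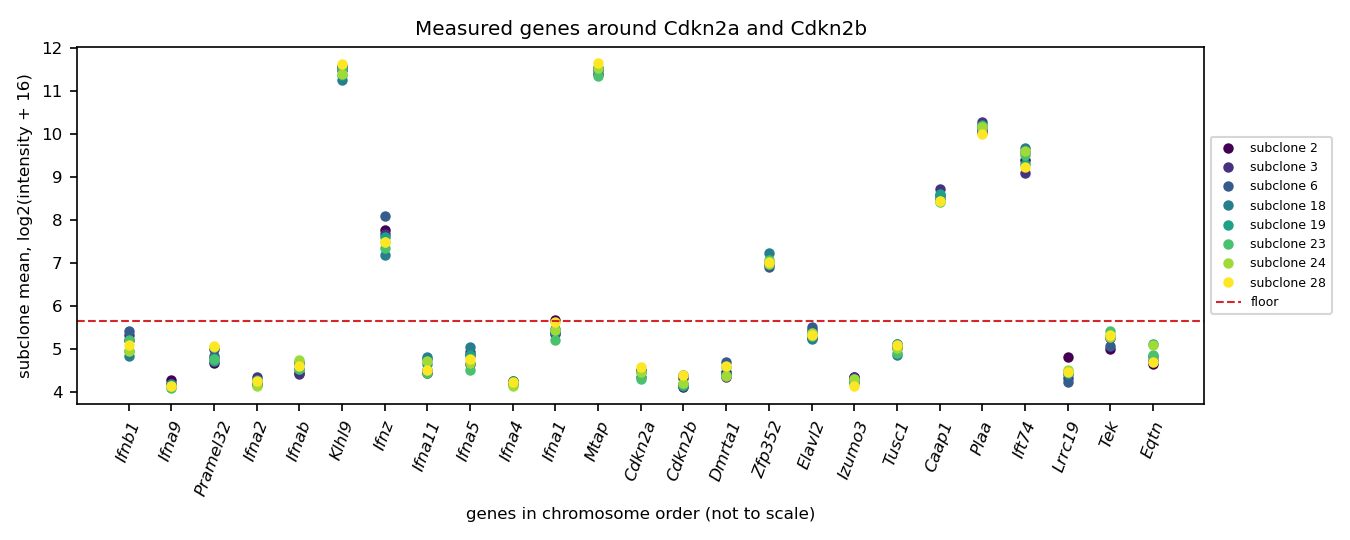
Subclone means, log2(intensity + 16), of the measured genes around Cdkn2a and Cdkn2b in chromosome order (not to scale), with the floor of 5.64 dashed. Mtap, next to Cdkn2a, lies between 11.35 and 11.64 in all 8 subclones, and Cdkn2a, Cdkn2b and Dmrta1 lie under the floor in all of them.

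Of 18 measured regulators and partners of the Cdkn2a locus, 16 passed the F-test (88.4% of genes above the floor did) and 1 lay under the floor on all arrays. Ets2, an activator of p16INK4a, was lowest in subclone 3 (7.75) and highest in subclone 28 (8.96), and the Polycomb gene Cbx2 lowest in subclone 2 (7.35) and highest in subclone 18 (8.35). Mdm2, which p19ARF restrains, went from 10.42 in subclone 6 to 11.41 in subclone 19. Id1, a dominant negative partner of helix-loop-helix factors, went from 9.28 in subclone 19 to 10.27 in subclone 2.

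The other CDK inhibitors were expressed, apart from Cdkn1c, which lay under the floor on all arrays although it passed the F-test. Cdkn1a, which encodes p21, was highest in subclone 28 (12.36) and lowest in subclone 24 (11.72). Cdkn1b (p27) was highest in subclone 2 (11.00) and lowest in subclones 19 and 18 (10.41 in both). Cdkn2d (p19INK4d) fell to 8.99 in subclone 18 and stood at 9.90 in subclone 28, and Cdkn2c (p18INK4c) lay between 9.23 in subclone 18 and 9.58 in subclone 6. Of these 5, 4 were lower in subclone 19 and 0 higher, and 1 of the 4 was Cdkn1c, under the floor. In subclone 18, 3 were lower (Cdkn1b, Cdkn2c and Cdkn2d) and 2 higher, 1 of them Cdkn1c under the floor.

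Rb1 varied least among the members that passed the test. The arrays read 9.49, 9.53 and 9.52 in subclone 23, 9.40, 9.37 and 9.49 in subclone 18, and 9.42, 9.43 and 9.39 in subclone 19. The other 14 arrays lay between 9.12 and 9.35, and none of them overlapped the first 9, a split drawn from these same values. The F-test gave an adjusted p of 2.68e-05, and subclones 23 and 28, the ends of the order, differed by 0.32 (95% interval from 0.22 to 0.43). Rb1 was higher in subclone 23 by 0.24 ± 0.037 (SE, adjusted p = 4.05e-05), and by 0.13 and 0.12 in subclones 18 and 19, and lower by -0.13 in both subclone 2 and subclone 28. Of the 28 pairs, 15 were called, against 35.8% of pairs over all genes, those under the floor included. Subclones 3, 24, 6, 2 and 28 did not differ from one another past the threshold, nor did 23, 18 and 19.

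The smaller of these differences turned on single arrays. Without replicate 3 of subclone 2 the difference there was -0.10 (adjusted p = 0.0959), without replicate 3 of subclone 18 it was 0.09 there (adjusted p = 0.0947), and without replicate 1 or 2 of subclone 19 it was 0.12 or 0.11 there (adjusted p = 0.0524 and 0.0658). The second probe set of Rb1 lay under the floor on all arrays. With the mean of both probe sets, Rb1 did not pass the F-test (range 0.16, adjusted p = 0.139), and its differences in subclones 2 and 19 were 0.0045 and -0.018, with the opposite sign. The 20 genes beside Rb1 on chromosome 14 had medians of 0.01, 0.01 and 0.02 in subclones 23, 18 and 19. With 25 genes a side, these medians were 0.02, 0.07 and 0.06, and those of the whole chromosome were 0.02, 0.03 and 0.10. Rb1 itself stood at 0.24, 0.13 and 0.12. The part of these genes in the level of Rb1 was not tested.

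By the brightest probe sets, subclones 18, 19 and 23 were thus the 3 with the highest Rb1 and also the 3 with the highest Nras. The third Nras probe set did not share this, with 9.36 in subclone 3, its highest, and 8.78 in subclone 18. Over the 8 subclone means, the r of Rb1 with Nras was 0.90, as a description of values from the same arrays. The r of Myc with Nras was 0.09.

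Of 12 cyclins D and E, their kinases and cofactors, 12 passed the F-test, which called 88.4% of genes above the floor. In subclone 18, 9 were higher and 0 lower, with a median of 0.31, and in subclone 23, 8 were higher and 2 lower, with a median of 0.23. Ccne2, a cyclin E gene, went from 8.25 in subclone 28 to 9.80 in subclone 18, the phosphatase gene Cdc25a from 8.21 in subclone 2 to 9.07 in subclone 18, and Ccne1 from 7.93 in subclone 19 to 8.61 in subclone 18. Ccnd3 went from 9.63 in subclone 19 to 10.38 in subclone 28. In subclone 2, 9 of the 12 were lower and 1 higher.

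Of 15 genes of pocket proteins, E2F or DP factors and Lin proteins (Lin9, Lin37 and Lin54), 13 passed. This share was near the 88.4% of genes above the floor. The widest ranges were those of the repressor E2f7 (6.32 in subclone 2, 8.41 in subclone 18) and of Rbl1, the gene of the RB relative p107 (8.30 in subclone 2, 9.44 in subclone 18). E2f2 was likewise lowest in subclone 2 (6.60), and highest in subclone 3 (7.64), and Lin9 had its ends in subclones 23 (8.28) and 6 (9.25). Of 23 measured E2F target genes, 23 passed, to be set against the same 88.4%. In subclone 2, 23 were lower, with a median of -0.64, among them Ccna2 (-1.08 ± 0.046) and Tk1 (-1.03 ± 0.053). That contrast called 20.5% of all genes lower, and 30.4% of those with a mean above the floor. In subclone 28, 16 were lower and 2 higher (median -0.33), with Mcm5 at -0.93 ± 0.040. In subclone 18, 19 were higher and 0 lower (median 0.38), with Chek1 at 0.61 ± 0.056. Where Rb1 was also higher, in subclones 23 and 19, 12 and 10 targets were higher and 4 lower in each (medians 0.13 and 0.10). In subclones 24, 6 and 3, where Rb1 was not called (-0.06, -0.11 and -0.05), 15, 11 and 10 targets were higher and 3, 0 and 3 lower.

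**Figure D5:**
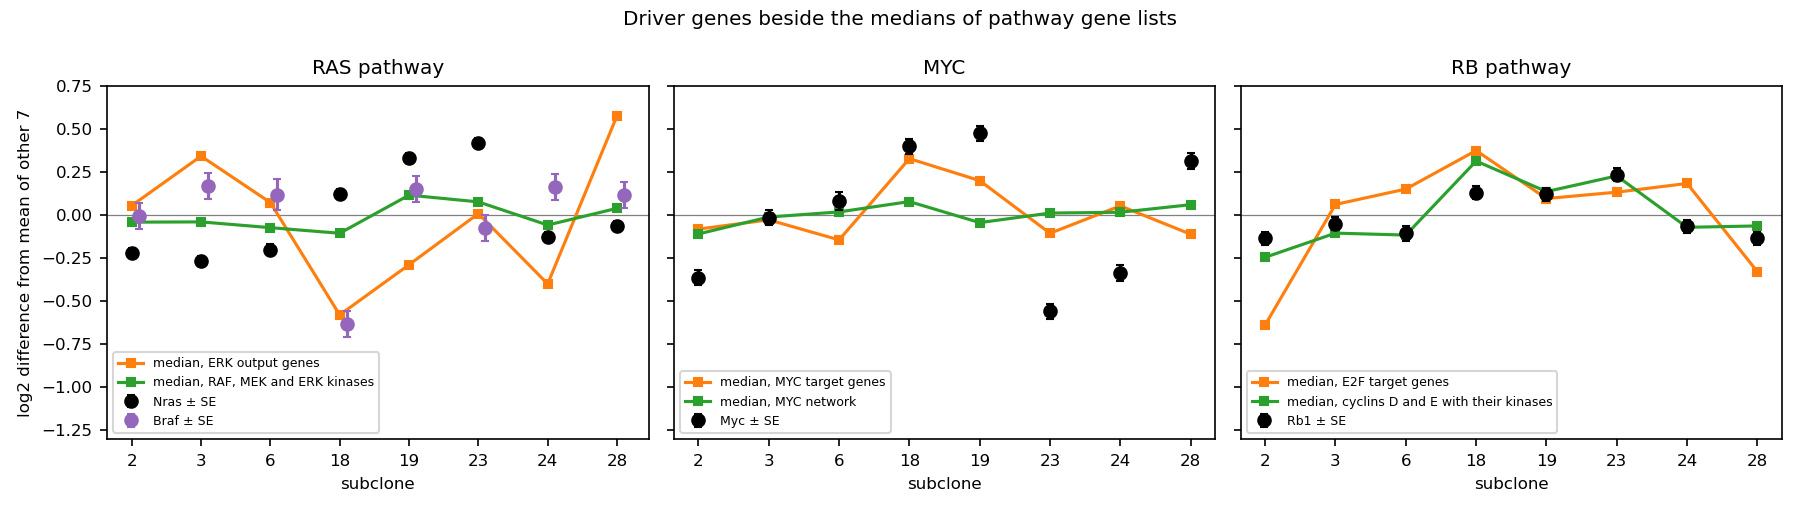
Log2 difference of each subclone from the mean of the other 7 for Nras and Braf, Myc, and Rb1 (points with SE), beside the medians of the gene lists of each pathway (squares joined by lines). ERK output genes have a median of 0.58 in subclone 28 and -0.58 in subclone 18, Myc target genes have their highest medians in subclones 18 and 19, and E2F target genes their lowest in subclone 2.

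The genes most like Nras, Braf and Myc were taken by Pearson r over the 8 subclone means, among 2329 genes whose highest and lowest means lay 1 log2 unit or more apart. The points share their arrays, and r is a description. For Nras they were Ankrd52 (0.98), Dzip1 (0.95) and Btbd19 (0.95), with means of Ankrd52 from 6.59 in subclone 3 to 7.90 in subclone 23. For Braf they were Lysmd2 (0.98), the glucose transporter gene Slc2a3 (0.96) and the zinc finger gene Zfp518a (0.96). All 3 had their lowest means in subclone 18, which largely follows from picking them by their r with Braf. Lysmd2 (4.77) and Zfp518a (4.15) had means under the floor there. For Myc they were Gng7, a G protein subunit gene (0.95), the folate carrier gene Slc19a1 (0.93) and Ppa1, a pyrophosphatase gene (0.93). Slc19a1 went from 8.29 in subclone 23 to 9.34 in subclone 18 and Ppa1 from 9.59 to 10.66 in the same 2 subclones, while Gng7 did not rise above the floor as a subclone mean.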

How the data were processed

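Total RNA was made into biotin-labelled cRNA and measured on 23 Affymetrix arrays, per the labels. The deposited table holds 1 linear intensity for each of 45101 probe sets on each array. How the authors summarised and scaled these intensities is not given in the sources used here. Control probe sets (64) were left out. Of the rest, 34945 had 1 gene symbol in the probe annotation, 932 several and 9160 none and stayed unnamed. Symbols were updated through RefSeq (GRCm38.p6) for 34741. Each of 18193 genes was represented by the probe set with the highest mean of log2(intensity + 16), with no filter on low values.

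A linear model of subclone means was run on all genes in limma 3.58.1 (lmFit and eBayes, R 4.3.3, 15 residual degrees of freedom), with Benjamini-Hochberg adjustment over all genes and called at 0.05. Contrasts set each subclone against the mean of the other 7, and all pairs against each other. They share arrays. The script was tested on simulated data. The members and gene lists were chosen with earlier results of these data known. Genes named from a list are up to 4 with the widest range past the F-test and above the floor, all members of the lists of CDK inhibitors and of genes beside Cdkn2a, and 3 of closest pattern per member that passed with a range of at least 0.5. Further list genes given with a difference in 1 subclone were chosen after their values were seen. Arrays of equal replicate number did not deviate together (mean correlation -0.0038), so the block is only an alternative. Number of arrays limits the precision.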

Additional observations from a re-analysis of the deposited data

How the results depend on the processing

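The count of genes past the F-test was 11242, and it lay between 10307 (only genes with a mean above the floor) and 11388 (array weights) under 7 alternatives, and between 11042 and 11396 with single arrays left out. With the replicate block it was 11152, and the block changed no call of a member. Replicate numbers are shared labels only: 6 of 23 arrays correlated best with their own number. The count of members past the test was 4, and 5 without replicate 2 of subclone 6. Members at the floor in all subclones remained 2 with the floor at the median of all probe sets, and with every probe set read.

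The mean of all probe sets changed most. Rb1 no longer passed the F-test (range 0.16, adjusted p = 0.139), and its differences became 0.0045 in subclone 2 and -0.018 in subclone 19, with the opposite sign. Mycn passed (range 0.45, adjusted p = 0.0294) and was higher in subclone 18 (0.30). Braf was called higher in subclones 19 and 24 (0.18 in both). Pseudocounts of 1 and 64, quantile normalization, array weights and the filter changed no F-test call of a member they tested. Under the filter, quantile normalization and array weights, Nras was called lower in subclone 28 (-0.06 to -0.08) and Mycn lower in subclone 19 (-0.41 to -0.42). A pseudocount of 64 also called Mycn lower there (-0.21). Quantile normalization lost Rb1 in subclone 2 (-0.09, adjusted p = 0.0696) and called Braf higher in subclone 24 (0.20). The filter called Braf higher in subclone 3 (0.17), and array weights called Cdkn2b higher in subclone 28 (0.17). The causes were not tested. Values near the floor limit Mycn, Cdkn2a and Cdkn2b.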
